A study of Homo sapiens with 6 samples.

Results

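Keratins are the intermediate filament proteins of epithelial cells, and 47 keratin genes could be followed in T24 bladder carcinoma cells given MAP30. The members are the genes whose symbol is KRT followed by a number and at most a letter A, B or C, without pseudogenes and without the keratin-associated proteins. Of 55 such genes in RefSeq, 47 had a probe set assigned to them alone, among 18132 genes measured that way. The other 8 (KRT6A, KRT6B, KRT16, KRT17, KRT34, KRT81, KRT82 and KRT86) have no value of their own and were not analysed here as genes. The 47 genes were read by 67 probe sets; 35 genes had 1 probe set and 12 had several, whose mean was taken.

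T24 is an established human cell line from a bladder carcinoma of the urothelium, so all samples derive from a single tumour. MAP30, from bitter melon (Momordica charantia), belongs to the plant proteins that inactivate ribosomes. RNA of 3 MAP30 samples, given 10 µg/ml and harvested after 48 hours, was hybridised to Affymetrix 3' expression arrays, 1 array a sample, beside RNA of 3 control samples titled as normal T24 cells. The sources used here do not say what the control cells received. The labels do not state whether replicates came from separate cultures; the spread behind each p-value is that of these samples and may be technical. The question is which keratin transcripts differ between cells with and without MAP30.

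Keratins work in pairs. An acidic type I chain joins a basic type II chain, and the pair assembles into filaments that are tied to desmosomes between cells and to hemidesmosomes at the basement membrane. Which pair a cell makes reflects its kind and its stage of differentiation: KRT8 and KRT18 with KRT7, KRT19 and KRT20 in simple and transitional epithelia such as the urothelium, KRT5 with KRT14 or KRT15 in basal cells, KRT1 with KRT10 in the upper epidermis, and a large set of hard keratins in the hair shaft.

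The values are on a log2 scale in which the median of every probe set over the 6 arrays is 0. Differences between arrays remain, but the level of each gene was removed, so no keratin can be called abundant or absent. For the same reason the urothelial markers of T24 could not be checked by level. For a gene with 1 probe set, the middle pair of its 6 values mirror each other about 0 by construction. A positive log2 fold change means higher with MAP30. "Passed" means an adjusted p under 0.05 by limma with Benjamini-Hochberg adjustment over all 18132 genes (two-sided, n = 3 per group).

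Changes were very common in these cells: 57.5% of all genes passed, 26.9% higher and 30.6% lower, and in 62.6% all arrays of one group lay beyond those of the other. Every count of passed genes below on the deposited scale stands against these shares. Among the 47 keratins 13 passed (27.7%), 3 higher and 10 lower, 34 did not pass, and the arrays did not overlap in 15 (31.9%). The median log2 fold change of the keratins was -0.05, against -0.02 for all genes. The median size of the change, whatever its sign, was 0.072 for keratins and 0.19 for all genes. At least a 2-fold change together with a passed test was found in 9.54% of all genes and in 3 keratins: KRT15, which rose, and KRT80 and KRT7, which fell. The standard errors of the 47 log2 fold changes ran from 0.03 to 0.13, with a median of 0.06. The 95% confidence intervals reached, in the median, 0.13 to either side of the estimate, so smaller differences were mostly not detectable with 3 arrays a group.

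**Figure D1:**
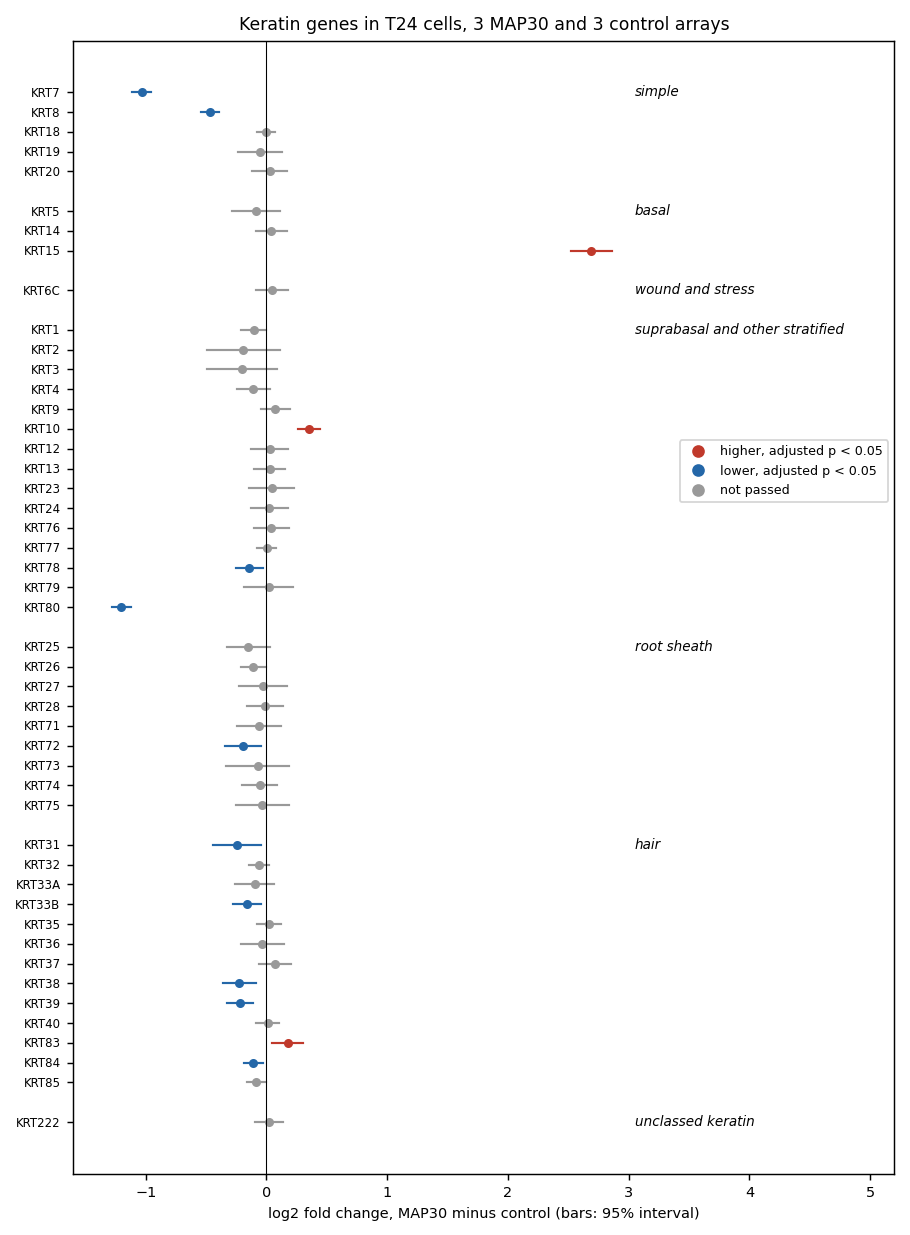
Log2 fold change of each of the 47 keratin genes (x axis, MAP30 minus control; points are estimates and bars 95% confidence intervals, 3 arrays per group), sorted by class. KRT15 stands at 2.69, KRT80 at -1.20 and KRT7 at -1.03, and every other keratin lies between -0.47 and 0.36.

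The counts for keratins with small changes depend on how the arrays are scaled. When each array was centred on its hybridization controls, 2 keratins were higher and 41 lower; when it was centred on its poly-A controls, 17 were higher and 3 lower. Both are spiked-in RNAs; with MAP30 the first shifted by 0.21 and the second by -0.16. The median of all genes moved to -0.23 and 0.14 under these scalings, and 21.1% and 70.3% of calls were higher, against 46.8% as deposited. Of all genes 80.8% and 69.8% passed under them, against 57.5% as deposited. The sign turned in 16 keratins under the first scaling and in 19 under the second, all with small changes as deposited. KRT15, KRT10, KRT80, KRT7 and KRT8 kept their direction and passed under both. For ACTB, the log2 ratio between 3' and 5' probe sets, a sign of RNA integrity, was 0.158 higher in the MAP30 arrays (SD 0.021 over the 3 control and 0.0068 over the 3 MAP30 arrays; two-sided exact permutation p = 0.1, the smallest that 3 against 3 arrays can give). For GAPDH the same difference was 0.043 (exact permutation p = 0.1). The part of either in the results on keratins was not tested.

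Of the 5 simple keratins 2 fell and 3 did not pass. KRT7, a type II keratin of glandular and transitional epithelia and a standard urothelial marker, had centred log2 values of 0.53, 0.50 and 0.49 in control and -0.53, -0.56 and -0.49 with MAP30. The groups lay far apart and the arrays within each differed little. KRT7 was 2.05-fold lower (log2 fold change -1.03 ± 0.03 SE, limma adjusted p = 1.61e-07). It was read by 1 probe set.

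KRT8, the type II partner of KRT18 and a basic element of every simple epithelium, had values of 0.24, 0.24 and 0.21 in control and -0.24, -0.22 and -0.25 with MAP30. No array of one group reached the other. KRT8 was 1.38-fold lower (-0.47 ± 0.03 SE, adjusted p = 6.14e-06), and -0.68 or -0.30 with hybridization-control or poly-A-control centring. All 8 probe sets of KRT8 were lower, by log2 fold changes from -0.60 to -0.34. All belong to a probe set class that may also bind transcripts of other genes, and KRT8 and KRT18 have many processed pseudogenes of near-identical sequence.

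KRT18, the type I partner of KRT8, showed no such shift. Its values were 0.00036, 0.0032 and -0.013 in control and -0.023, -0.014 and 0.017 with MAP30. The groups overlapped, and the log2 fold change of -0.0035 had a 95% interval from -0.08 to 0.07. KRT18 passed as higher, at 0.16, with poly-A-control centring and as lower with hybridization-control centring. Its 2 probe sets are of the same cross-binding class as those of KRT8.

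KRT19, a small type I keratin of simple epithelia, had values of 0.18, -0.11 and 0.03 in control and -0.09, -0.03 and 0.06 with MAP30. Its control arrays spanned more than the difference between the groups (-0.05, 95% interval -0.24 to 0.13). KRT20, the keratin of superficial umbrella cells of the urothelium, had values of 0.07, -0.16 and -0.0032 in control and 0.0032, 0.03 and -0.05 with MAP30. Its groups overlapped as well (0.03, 95% interval -0.12 to 0.17).

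Of the 3 basal keratins 1 rose and 2 did not pass. KRT15, a type I keratin of basal cells and of stem cells of the hair follicle bulge, had values of -1.23, -1.48 and -1.42 in control and 1.23, 1.35 and 1.37 with MAP30. The groups were separated by many times the spread within them. KRT15 was 6.45-fold higher (2.69 ± 0.07 SE, 95% interval 2.52 to 2.86, adjusted p = 6.83e-08), the largest change among the 47 keratins. It was read by 1 probe set.

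KRT5, the type II keratin of basal cells, had values of 0.14, -0.06 and -0.02 in control and -0.03, -0.23 and 0.06 with MAP30. KRT14, its usual type I partner, had values of -0.07, 0.04 and -0.04 in control and 0.09, -0.08 and 0.04 with MAP30. In both genes the groups overlapped. The log2 fold change of KRT5 was -0.09 (95% interval -0.29 to 0.11) and that of KRT14 was 0.04 (95% interval -0.09 to 0.17). The 2 probe sets of KRT5 gave -0.21 and 0.04 and neither passed. KRT14 was read by 1 probe set, of the same class as those of KRT8, which may also bind transcripts of other genes. The intervals of KRT5 and KRT14 end well below the change of KRT15.

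**Figure D2:**
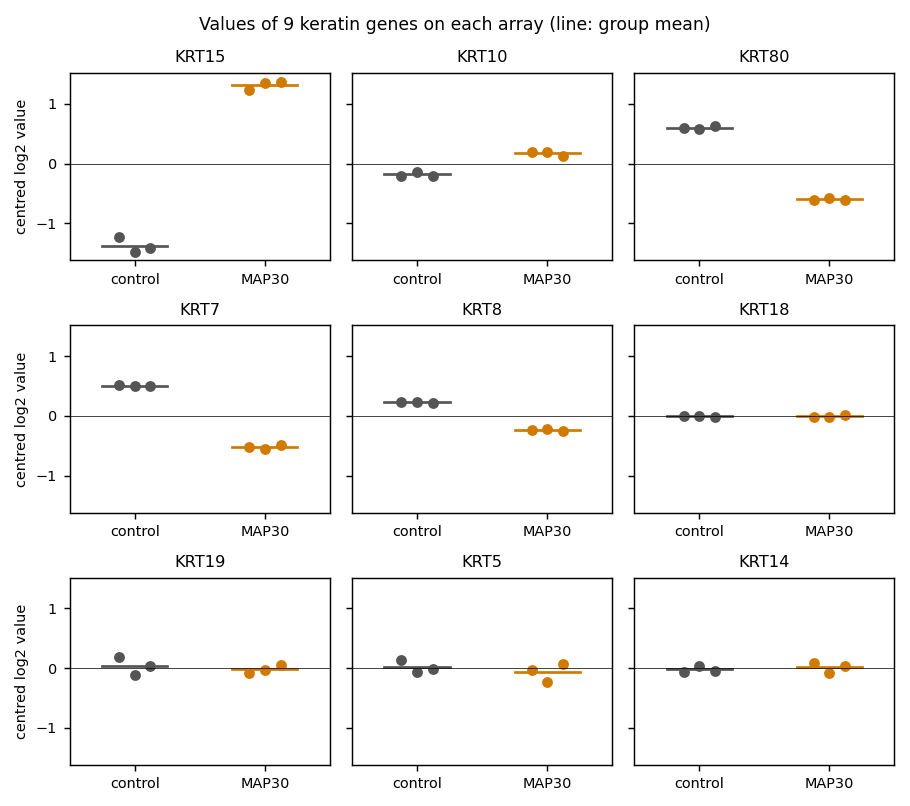
Centred log2 values (y axis, the same scale in all panels; the median of each probe set is 0) of 9 keratin genes on the 3 control and 3 MAP30 arrays; points are arrays and lines group means. The groups are separate for KRT15, KRT10, KRT80, KRT7 and KRT8 and overlap for KRT18, KRT19, KRT5 and KRT14.

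Among keratins of wounded and stressed epithelium only KRT6C, a type II keratin of palms and soles, could be read as a gene. It had values of -0.07, 0.09 and -0.08 in control and 0.07, -0.04 and 0.06 with MAP30, which overlap (0.05, adjusted p = 0.511). A probe set shared by KRT16 and 3 of its pseudogenes had a log2 fold change of 0.03 (adjusted p = 0.714). Probe sets of the KRT17 pseudogene KRT17P5 were lower at -0.40 (limma adjusted p = 0.00237) and -0.17 (0.0224). Another of KRT17P5 (0.10) and that of the pseudogene KRT17P2 (0.05) did not pass. In this test over all probe sets 56.3% passed. Whether these probe sets also bind KRT17 was not tested.

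Of 15 keratins of suprabasal cells and other stratified epithelia, 1 rose, 2 fell and 12 did not pass. KRT80, a type II keratin found near desmosomes in many epithelia, had values of 0.60, 0.58 and 0.63 in control and -0.62, -0.58 and -0.60 with MAP30. Arrays within a group were almost level. KRT80 was 2.30-fold lower (-1.20 ± 0.03 SE, adjusted p = 7.77e-08), the largest fall among the 47 keratins. It was read by 1 probe set.

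KRT10, the type I keratin of differentiating epidermal cells, had values of -0.20, -0.13 and -0.20 in control and 0.20, 0.20 and 0.13 with MAP30. The groups did not overlap, and KRT10, read by 1 probe set, was 1.28-fold higher (0.36 ± 0.04 SE, adjusted p = 9.83e-05). The size of this rise depended on scaling: 0.15 when arrays were centred on hybridization controls and 0.52 on poly-A controls. An antisense gene, KRT10-AS1, overlaps KRT10 in RefSeq. Both of its probe sets were higher, by 1.04 (adjusted p = 6.65e-07) and 0.42 (adjusted p = 0.000475), in a test over all 49395 probe sets in which 56.3% passed.

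The promoter of KRT10 is shown because KRT10 is the most strongly changed of the 7 passed keratins that have a promoter in the RefSeq table (GRCh38.p14). KRT39, a hair keratin that fell, and KRT34, a hair keratin read with another gene, are set beside it. The sequences are the 250 bases before the annotated start, 5′ to 3′ on the gene's own strand. They lie on the minus strand of chromosome 17 at chr17:40822615-40822864 for KRT10, chr17:41382307-41382556 for KRT34 and chr17:40966949-40967198 for KRT39. Capitals mark TATAAA, searched on the gene's strand, and CCAAT, searched on both strands and therefore also written ATTGG.
KRT10: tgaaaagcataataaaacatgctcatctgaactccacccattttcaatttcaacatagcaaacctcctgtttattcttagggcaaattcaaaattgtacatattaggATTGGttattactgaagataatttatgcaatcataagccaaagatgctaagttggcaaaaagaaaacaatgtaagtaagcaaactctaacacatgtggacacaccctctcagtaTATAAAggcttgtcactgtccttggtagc
KRT34: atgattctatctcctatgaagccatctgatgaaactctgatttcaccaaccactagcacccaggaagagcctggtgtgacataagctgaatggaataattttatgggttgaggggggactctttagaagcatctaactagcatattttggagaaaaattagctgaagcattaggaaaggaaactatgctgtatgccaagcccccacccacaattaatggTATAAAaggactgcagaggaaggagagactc
KRT39: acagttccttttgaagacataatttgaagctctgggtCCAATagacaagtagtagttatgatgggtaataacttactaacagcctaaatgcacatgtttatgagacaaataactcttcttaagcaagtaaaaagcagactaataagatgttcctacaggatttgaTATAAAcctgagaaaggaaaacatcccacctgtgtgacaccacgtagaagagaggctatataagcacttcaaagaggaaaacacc

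In KRT10 the TATAAA runs from 29 to 24 bases before the start, and in KRT34 from 31 to 26. In KRT39 these exact letters lie farther away, from 85 to 80 bases before the start. Nearer the start the KRT39 window also holds tatataa, left in small letters because only TATAAA was searched. The KRT10 window also holds CCAAT, on the other strand, from 143 to 139 bases before the start. That of KRT39 holds it from 213 to 209.

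Of the 47 keratins 32 have a promoter entry. TATAAA is found in 18 of these 32 windows (56.2%), against 8.38% of the windows of 27305 genes. With its first base 40 to 20 bases before the start it is found in 15 of 32 (46.9%), against 2.92%; by outcome these are 4 of the 7 keratins that passed and 11 of the 25 that did not. CCAAT is found in 15 of 32 (46.9%), against 37.0%. GGGCGG, searched on both strands, is found in 4 of 32 (12.5%), against 46.2%. TGANTCA, the letters of an AP-1 site, searched on both strands, is found in 0 of 32, against 8.06%. These matches describe exact letters in a window, not bound sites, and variants such as TATATAA were not counted.

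KRT78, a type II keratin of stratified epithelia, fell a little: -0.14 ± 0.05 SE (adjusted p = 0.0367), with values of 0.10, 0.14 and 0.0033 in control and -0.0033, -0.09 and -0.09 with MAP30. The groups only just cleared each other, and the probe set missed the threshold when probe sets were tested in place of genes (adjusted p = 0.0547). KRT13, the type I keratin of intermediate urothelial and mucosal cells, had a log2 fold change of 0.03 (adjusted p = 0.734), and its mucosal partner KRT4 had -0.11 (adjusted p = 0.162). KRT23, a type I keratin, had 0.04 (adjusted p = 0.692). KRT1, the epidermal type II partner of KRT10, had values of 0.0021, 0.0085 and 0.08 in control and -0.12, -0.0021 and -0.10 with MAP30. The groups of KRT1 did not overlap, but the test was not passed (-0.11, adjusted p = 0.0819).

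The other members of the class were flat or noisy. KRT2, a late epidermal keratin, had a control array at 0.49 while the other 5 arrays lay between -0.08 and 0.06. KRT3, a corneal keratin, had MAP30 values of 0.13, -0.33 and -0.33. Neither KRT2 (-0.19) nor KRT3 (-0.20) passed. KRT9, KRT12, KRT24, KRT76, KRT77 and KRT79 had log2 fold changes from 0.0018 (KRT77) to 0.07 (KRT9). Of the 2 probe sets of KRT9, the keratin of palms and soles, 1 was higher (0.21, adjusted p = 0.0170) and the other was not (-0.07).

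Of the 9 keratins of the inner root sheath and companion layer of the hair follicle, 1 fell and 8 did not pass. KRT72 had values of 0.02, 0.11 and 0.10 in control and -0.08, -0.02 and -0.25 with MAP30. The groups did not overlap (-0.19 ± 0.06 SE, adjusted p = 0.0308). All 9 log2 fold changes were negative as deposited, from -0.19 (KRT72) to -0.01 (KRT28), with a median of -0.06. With poly-A-control centring the median was 0.10 and none of the 9 passed in either direction; with hybridization-control centring all 9 passed as lower. KRT25 (-0.15), KRT26 (-0.11), KRT73 (-0.07), KRT71 (-0.06), KRT74 (-0.06), KRT75 (-0.04) and KRT27 (-0.03) lay between the extremes.

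Of 13 measured hair keratins 1 rose, 5 fell and 7 did not pass (46.2% passed, against 57.5% of all genes). All 13 changes were small, from -0.24 to 0.18. KRT39 had values of 0.17, 0.05 and 0.13 in control and -0.12, -0.14 and -0.05 with MAP30. Its groups did not overlap, and it fell by 0.22 ± 0.05 SE (adjusted p = 0.00374). KRT38 had values of 0.22, 0.04 and 0.19 in control and -0.14, -0.05 and -0.04 with MAP30 (-0.22 ± 0.06 SE, adjusted p = 0.0109). Control arrays of KRT38 and KRT39 lay above all MAP30 arrays, though array 2 of the controls was near them.

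KRT33B (-0.16, adjusted p = 0.0222), KRT84 (-0.11, adjusted p = 0.0275) and KRT31 (-0.24, adjusted p = 0.0394) also fell. The arrays of KRT31 overlapped between groups: 0.15, -0.01 and 0.21 in control and 0.01, -0.12 and -0.27 with MAP30. KRT83 was the hair keratin that rose, with values of -0.06, -0.12 and -0.0075 in control and 0.16, 0.0075 and 0.17 with MAP30 (0.18 ± 0.05 SE, adjusted p = 0.0269). KRT83 had -0.03 and no longer passed with hybridization-control centring. KRT31, KRT33B, KRT38 and KRT39 no longer passed with poly-A-control centring, and KRT84 was at 0.05 there. With hybridization-control centring KRT31 (-0.45), KRT38 (-0.43) and KRT39 (-0.43) were lower by more.

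The 7 hair keratins that did not pass were KRT32 (-0.06), KRT33A (-0.10), KRT35 (0.02), KRT36 (-0.03), KRT37 (0.07), KRT40 (0.0090) and KRT85 (-0.08). The groups of KRT32 and KRT85 did not overlap all the same. Of 3 probe sets of KRT85 1 was lower (-0.20, adjusted p = 0.0223). KRT222, a keratin of no class used here, had a log2 fold change of 0.02.

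Set side by side, the simple, basal and hair keratins differed in the size of change of single members rather than in their medians. The median log2 fold change was -0.05 for the 5 simple, 0.04 for the 3 basal and -0.08 for the 13 hair keratins. The simple class held KRT7 at -1.03, the basal class KRT15 at 2.69, and the hair class ran from -0.24 to 0.18. Without levels, it cannot be said which members of these classes are at background, where changes would be small. With hybridization-control centring 5 of 5 simple keratins were lower, 1 of 3 basal keratins was higher and 2 lower, and 11 of 13 hair keratins were lower. With poly-A-control centring 2 of 5 simple keratins were higher and 2 lower, 2 of 3 basal keratins were higher and 0 lower, and 5 of 13 hair keratins were higher and 0 lower. By type, 2 of 26 type I keratins rose and 4 fell, with a median of 0.0027. Of 21 type II keratins 1 rose and 6 fell, with a median of -0.09. The share passed was 23.1% for type I and 33.3% for type II, against 57.5% of all genes.

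Since a type I and a type II chain pair in the filament, the difference between partners was taken within each array, which cancels any scaling that shifts a whole array by a constant. This was possible for 6 of 8 planned pairs, KRT6A, KRT6B, KRT16 and KRT17 having no value. KRT8 minus KRT18 was 0.24, 0.24 and 0.23 in control and -0.22, -0.21 and -0.26 with MAP30. The type II partner thus fell relative to its type I partner by 0.46 on the log2 scale (SE 0.02), a ratio 1.38-fold lower. KRT7 minus KRT19 was 0.34, 0.62 and 0.46 in control and -0.44, -0.53 and -0.55 with MAP30, a shift of -0.98 (SE 0.09).

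KRT1 minus KRT10 shifted by -0.46 (SE 0.05). KRT4 minus KRT13 shifted by -0.13 (SE 0.06). In these 4 pairs the groups did not overlap (two-sided exact permutation p = 0.1, the smallest possible; 0.15 after Benjamini-Hochberg adjustment over 6 pairs), so none could pass 0.05. KRT5 minus KRT14 shifted by -0.13 (SE 0.10) and KRT3 minus KRT12 by -0.23 (SE 0.13), with overlapping groups (exact permutation p = 0.2). Added after the values were seen, KRT5 minus KRT15 was 1.37, 1.42 and 1.40 in control and -1.26, -1.58 and -1.31 with MAP30, a shift of -2.78 (SE 0.10; exact permutation p = 0.1).

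Most keratin genes lie in 2 clusters, the type II genes with KRT18 on chromosome 12 and the other type I genes on chromosome 17. On chromosome 12, 22 keratins were measured, of which 1 rose, 6 fell and 15 did not pass. KRT80 and KRT7, the keratins with the largest falls, stand next to each other at one end in the order of measured genes, and KRT8 and KRT18 stand at the other. On chromosome 17, 25 keratins were measured, of which 2 rose, 4 fell and 19 did not pass. KRT15 stands there between KRT13 (0.03) and KRT19 (-0.05), neither of which passed.

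The keratin-associated proteins, which crosslink hair keratins in the hair shaft, lie partly inside the cluster on chromosome 17. Of 25 measured there 4 rose and 2 fell, where 26.9% of all genes rose and 30.6% fell. KRTAP2-3 had values of -1.66, -1.67 and -1.69 in control and 1.69, 1.69 and 1.66 with MAP30. It was 10.2-fold higher (3.35 ± 0.03 SE, adjusted p = 2.99e-09), while KRTAP2-4 next to it was slightly lower (-0.16). KRTAP4-9 was 5.39-fold higher (2.43 ± 0.16 SE, adjusted p = 5.12e-06), and its neighbours KRTAP4-11 (0.56) and KRTAP4-12 (0.22) were higher too as deposited. The change of KRTAP4-12 is about the size of the shift of the hybridization controls (0.21), and that of KRTAP2-4 about that of the poly-A controls (-0.16). These genes are closely similar in sequence, so a probe set may bind more than its named gene. In all 82 measured keratin-associated proteins 6 rose and 5 fell (13.4% passed), with a median of -0.01; 4 were higher and 57 lower with hybridization-control centring, and 35 higher and 0 lower with poly-A-control centring.

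**Figure D3:**
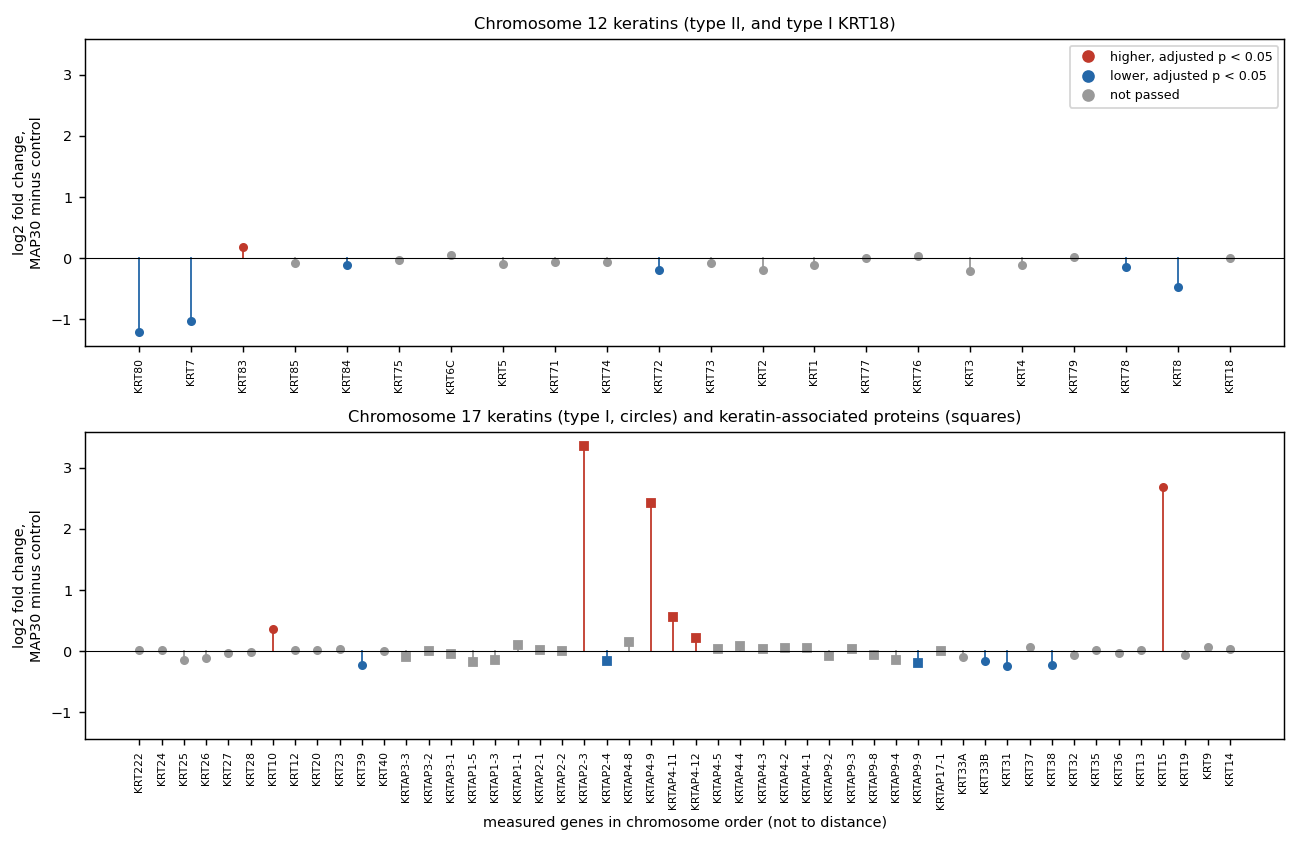
Log2 fold change (y axis, MAP30 minus control) of the measured keratins (circles) and keratin-associated proteins (squares) in their order along chromosomes 12 and 17, not drawn to distance. KRT80 and KRT7 are neighbours at -1.20 and -1.03, and KRT15 at 2.69, KRTAP2-3 at 3.35 and KRTAP4-9 at 2.43 rise among genes near 0.

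Genes whose products work with keratins moved both ways, and as for the keratins their counts depend on scaling. Each count below stands against the share of all genes that passed: 57.5% as deposited, 80.8% on hybridization controls and 69.8% on poly-A controls. Of 16 desmosome genes, which anchor keratin filaments at cell contacts, 2 rose, 6 fell and 8 did not pass, with a median of -0.09. On hybridization controls 2 were higher and 13 lower (median -0.30), and on poly-A controls 6 were higher and 5 lower (median 0.08). The desmosomal cadherin DSC3 rose (0.92 ± 0.06 SE) and DSG2 fell (-0.75 ± 0.03 SE), as did the plaque proteins PKP4 (-0.68) and PKP2 (-0.57). DSP, which binds keratin directly, had 0.01 and did not pass. Of 5 measured hemidesmosome genes 2 rose and 3 fell as deposited; 4 of 5 passed on hybridization controls and 3 of 5 on poly-A controls. DST, which links keratin to the hemidesmosome, rose (0.87 ± 0.04 SE), and the tetraspanin CD151 fell (-0.64 ± 0.03 SE). PLEC fell by 0.22 and ITGA6 rose by 0.21, but PLEC did not pass with poly-A-control and ITGA6 not with hybridization-control centring. ITGB4 (-0.11, adjusted p = 0.0247) did not pass with gene-median centring (adjusted p = 0.0629), quantile normalization (adjusted p = 0.0646) or poly-A-control centring, where it was at 0.05.

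Of 14 genes for proteins that bind or turn over keratins 3 rose and 3 fell; 1 was higher and 11 lower on hybridization controls, and 6 higher and 3 lower on poly-A controls. KLHL24, an adaptor of a ubiquitin ligase for keratin 14, was 2.33-fold higher (log2 fold change 1.22 ± 0.04 SE, adjusted p = 2.31e-07). Its log2 fold change was larger, 1.83, when only gene-specific probe sets (classes _at and _a_at) were used. SFN, or 14-3-3 sigma, was lower (-0.52), as were TRADD (-0.47), which binds KRT18, and FAM83H (-0.38), a keratin organiser. Of 15 other intermediate filament proteins 2 rose and 3 fell; 1 was higher and 12 lower on hybridization controls, and 7 higher and 2 lower on poly-A controls. The nuclear lamins LMNB1 (-3.56) and LMNB2 (-1.36) were lower and the lens filament gene BFSP1 was higher (2.27 ± 0.17 SE). LMNB2 was at -0.84 from gene-specific probe sets, and LMNB1 at -5.00 after quantile normalization, which was run on the centred values. VIM, the mesenchymal filament vimentin, was 1.10-fold lower (-0.14, adjusted p = 0.00572), but at 0.03 and not passed with poly-A-control centring.

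Of 17 measured regulators of epithelial keratins 6 rose and 5 fell, with a median of 0.03; 6 were higher and 9 lower on hybridization controls, and 10 higher and 2 lower on poly-A controls. KLF5 had values of -1.27, -1.30 and -1.27 in control and 1.24, 1.30 and 1.28 with MAP30 and was 5.86-fold higher. GATA3 (4.36-fold), KLF4 (3.02-fold) and PPARG (1.88-fold), factors of urothelial or epidermal differentiation, were higher as well. The highest adjusted p of these 4 was 2.85e-06, for PPARG. GRHL1 (0.86) and RARA (0.50) also rose. The 6 that did not pass were GRHL2 (0.03), GRHL3 (-0.04), OVOL1 (0.09), OVOL2 (0.08), ELF3 (0.02) and RARB (-0.12). The 5 that fell were SP1 (-0.73), TFAP2C (-0.31), the urothelial factor FOXA1 (-0.16), RARG (-0.15) and TFAP2A (-0.14), of which FOXA1, RARG and TFAP2A did not pass with poly-A-control centring. Of 7 regulators linked to hair keratins, the glucocorticoid receptor NR3C1 rose (1.13 ± 0.04 SE) and LEF1 (-0.74 ± 0.03 SE) and VDR (-0.14 ± 0.05 SE) fell. VDR was at 0.02 with poly-A-control centring, and its call was also lost with gene-specific probe sets, gene-median centring, quantile normalization, the replicate block and 4 of the 6 fits without 1 array. Of the 7, 1 was higher and 3 lower on hybridization controls, and 4 higher and 1 lower on poly-A controls. Of 25 cornified envelope genes 2 rose, 3 fell and 20 did not pass; 1 was higher and 15 lower on hybridization controls, and 15 higher and 0 lower on poly-A controls. PI3, or elafin, was higher (0.78), and CST6 (-0.27), SPRR1A (-0.25) and SPRR2E (-0.17) were lower but did not pass with poly-A-control centring.

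**Figure D4:**
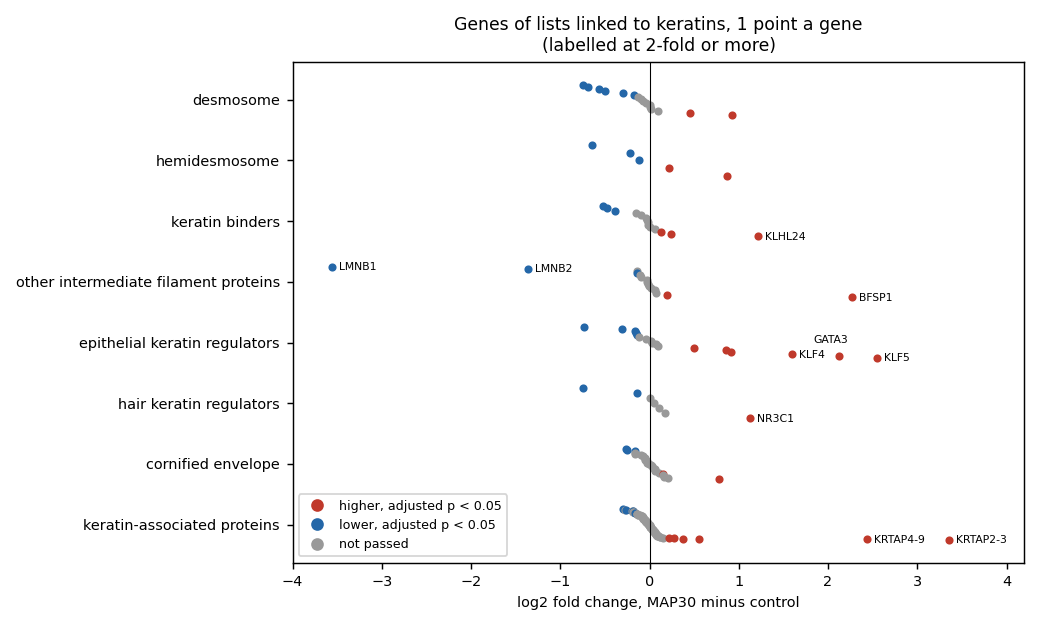
Log2 fold change (x axis, MAP30 minus control) of the genes of 8 lists linked to keratins, 1 point a gene, with those that passed at 2-fold or more labelled. Each list holds genes on both sides of 0, with LMNB1 at -3.56 and KRTAP2-3 at 3.35 at the ends.

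Of 10 marker genes of leukocytes, endothelium and fibroblasts 2 were higher (MS4A1 0.11, COL1A1 0.14), 1 was lower (CD14 -0.26) and 7 did not pass. The rises of MS4A1 and COL1A1 are smaller than the shift of the hybridization controls (0.21). Without levels, it cannot be said which of them are at background.

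**Figure D5:**
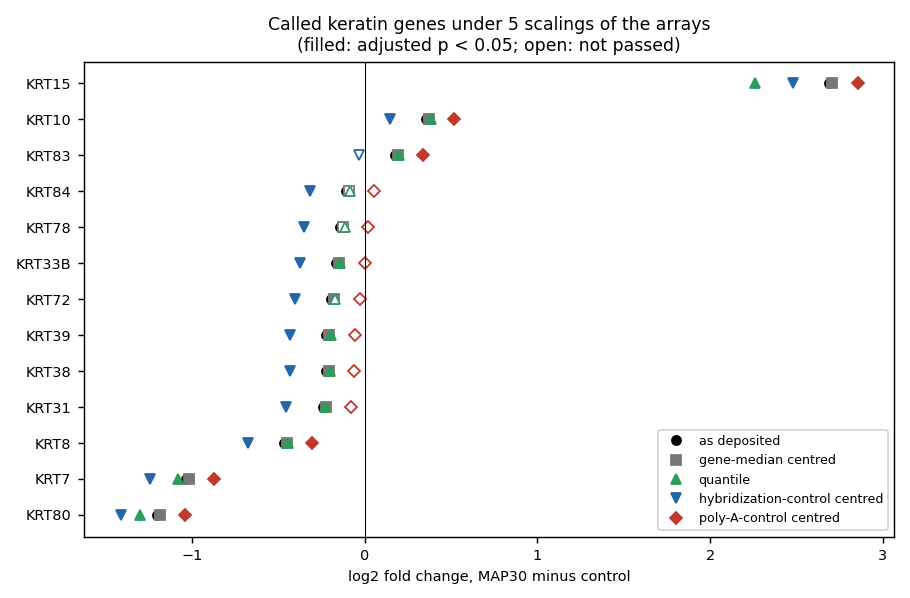
Log2 fold change (x axis, MAP30 minus control) of the 13 keratins that passed, under the deposited scale and 4 other scalings of the arrays; filled symbols passed and open symbols did not. KRT15, KRT10, KRT8, KRT7 and KRT80 stay filled on one side of 0 in all 5, while KRT83, KRT84 and KRT78 cross it.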

How the data were processed

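Each of the 6 samples was hybridised to 1 Affymetrix 3' array after amplification and biotin labelling, per the labels' protocols. The authors deposited log2 expression values of 49395 probe sets; RMA and MAS5 appear in the submitters' processing notes, with no role given. No source used here states the log base, which was taken as 2; folds rest on that. Each probe set's median is 0 within 5e-07, so levels are lost. The platform's annotation gave 44994 probe sets 1 symbol and 1832 several. Gene means over single-symbol probe sets were fitted with limma 3.58.1 (R 4.3.3; lmFit, eBayes), with Benjamini-Hochberg adjustment over 18132 genes. Promoters and gene order are from RefSeq GRCh38.p14. Tables and figures used Python 3.11.15.

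The members and lists were chosen with earlier results of these data known. Named genes are keratins that passed without overlap, a fixed set, and up to 4 passed members of each other list with the largest change; other names were picked with their values in view. On simulated data for MAP30 against control (18132 genes, 50 changed at each size) the fit recovered 62% of 1.25-fold, 90% of 1.5-fold and 100% of 2-fold changes, with 10 false calls. Far fewer genes were changed there than passed in the data (57.5%), which makes the adjustment stricter. Neither the recovery nor the number of false calls therefore carries over to these data. Same-numbered arrays deviated with correlations of -0.04, 0.07 and 0.01, so no pairing by number was detected. Whether same-numbered samples were handled together cannot be told from this. The number of arrays limits the precision.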

Additional observations from a re-analysis of the deposited data

Results flagged for a closer look

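A probe set annotated to both KRT34, a type I hair keratin, and LOC100653049 lies outside the gene comparison because it names more than 1 gene, yet it held a signal well above the control arrays. Its values were -0.96, -0.82 and -1.05 in control and 0.94, 0.82 and 1.14 with MAP30, a log2 fold change of 1.91 ± 0.09 SE (limma adjusted p = 1.43e-06 over all probe sets). In chromosome order KRT34 stands between KRT33B (-0.16) and KRT31 (-0.24). Centring on hybridization controls gave 1.70 and on poly-A controls 2.08, and the difference lay between 1.82 and 1.99 with 1 array left out. The rise cannot be assigned to KRT34 or to the other gene from these arrays.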

How the results depend on the processing

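KRT15, KRT10, KRT80 and KRT7 kept direction and call in 14 alternatives, and KRT8 in the 13 that measured it: KRT15 between 2.26 and 2.85, KRT80 between -1.41 and -1.04, KRT7 between -1.24 and -0.87, KRT8 between -0.68 and -0.30 and KRT10 between 0.15 and 0.52. The other 8 calls were lost in 1 to 9 alternatives. Centring on hybridization controls called 41 keratins lower and on poly-A controls 3; the count ran from 5 to 11 with 1 array left out (6 without control 3, 5 without MAP30 3). Keratins called higher numbered 17 with poly-A-control centring and 2 or 3 with 1 array left out. The keratin median was -0.030 after quantile normalization, -0.26 on hybridization controls and 0.11 on poly-A controls, and from -0.082 to -0.0059 with 1 array left out. With the replicate number as a replicate block 3 keratins were higher and 8 lower, KRT31 and KRT84 being lost. With hybridization-control centring 16 keratins turned negative. Of these 12 then passed as lower: KRT13 -0.18, KRT12 -0.18, KRT14 -0.17, KRT6C -0.16, KRT20 -0.18, KRT24 -0.18, KRT77 -0.21, KRT79 -0.19, KRT40 -0.20, KRT35 -0.19, KRT222 -0.19 and KRT76 -0.17; KRT9, KRT23 and KRT37 did not pass before or after, and KRT83 (-0.033) lost its call, as did PRPH (-0.011). With poly-A-control centring 19 keratins turned positive. KRT18 (0.16) and KRT32 (0.10) then passed and 17 did not, among them KRT78 (0.022) and KRT84 (0.055), which lost their calls, as did VDR (0.023). These centrings shift every gene by a constant per array. Quantile normalization was run on the centred values, so it matched the deviations of the arrays and not their levels. The planned filter on low values was not run because the values keep no levels.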
